A study of Mus musculus with 2 samples.

Results

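Interferon-responding B cells are B lymphocytes whose RNA carries the genes that interferons switch on. They were found here in single-cell RNA profiles of mouse spleen, among barcodes (droplets read as 1 cell) with at least 200 genes detected and at most 10% of their molecules from mitochondrial genes. A B cell had at least 3 unique molecular identifiers (UMIs, each marking 1 captured RNA molecule) of Cd79a, Cd79b and Ms4a1 together, no UMI of Cd3d, Cd3e or Cd3g and fewer than 20 of Jchain. A responding B cell also had at least 3 UMIs of Ifit1, Ifit2, Ifit3, Usp18, Oasl1 and Rsad2 together. Of 7524 barcodes, 6588 passed the quality limits, 2889 passed the B cell gate and 255 were members. That was 8.83% of gated B cells (95% Clopper-Pearson interval 7.82% to 9.92%), against 2634 other gated B cells.

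The study profiled spleen cells of WAS-KO mice, a mouse model of Wiskott-Aldrich syndrome in which the Was gene is disrupted, and of WT mice, with 1 sample of each. Both were labelled 6 to 8 weeks old, and the labels give no sex, number of animals or details of the knockout allele. The deposited table holds 1 set of 7524 different barcodes with a single suffix and ties 0 of them to a sample, so the genotypes cannot be told apart here and no value below compares them. The table is therefore 1 pooled sample: there is no replicate and no p-value, and intervals cover counting error only.

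Type I interferons bind the IFNAR1 and IFNAR2 receptor, which acts through JAK1 and TYK2 to form the transcription factor complex ISGF3. ISGF3 binds a promoter element called ISRE and switches on antiviral genes, while interferon gamma acts mainly through the GAS element. In splenic B cells, interferons are known for effects on activation, antigen presentation and antibody responses, and Wiskott-Aldrich syndrome combines immunodeficiency with autoimmunity.

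The promoters of several responding genes show the element directly, and the genes printed here were picked because they hold it. Of the 6 rule genes, 5 were in the promoter table and 3 of these held it. Each line gives 60 bases of the gene's own strand, 5′ to 3′, upstream of its start in the RefSeq promoter table (GRCm38.p6). Capitals mark every complete match to GAAANNGAAA or its reverse complement TTTCNNTTTC. The first 3 genes belong to the rule; the next 3 are antiviral genes outside it, Irgm1 and Igtp are GTPases and Socs1 is a feedback inhibitor.
Ifit3: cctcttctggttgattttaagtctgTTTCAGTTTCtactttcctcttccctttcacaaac
Ifit1: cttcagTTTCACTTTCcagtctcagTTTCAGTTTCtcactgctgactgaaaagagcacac
Rsad2: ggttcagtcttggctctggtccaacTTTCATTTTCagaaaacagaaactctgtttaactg
Isg15: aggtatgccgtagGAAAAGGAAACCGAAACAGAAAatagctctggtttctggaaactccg
Oas3: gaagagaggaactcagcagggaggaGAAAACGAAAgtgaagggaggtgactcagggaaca
Slfn5: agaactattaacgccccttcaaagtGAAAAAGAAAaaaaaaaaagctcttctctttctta
Irgm1: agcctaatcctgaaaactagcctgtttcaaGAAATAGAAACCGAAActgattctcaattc
Igtp: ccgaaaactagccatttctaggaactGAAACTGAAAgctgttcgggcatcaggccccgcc
Socs1: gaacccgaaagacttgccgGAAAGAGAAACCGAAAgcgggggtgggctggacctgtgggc

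These windows lie at chr19:34583382-34583441 for Ifit3, chr19:34640779-34640838 for Ifit1, chr12:26456538-26456597 for Rsad2, chr4:156200850-156200909 for Isg15 and chr5:120777700-120777759 for Oas3. Those of the others are chr11:82951922-82951981 for Slfn5, chr11:48871421-48871480 for Irgm1, chr11:58199496-58199555 for Igtp and chr16:10785579-10785638 for Socs1. Rsad2, Isg15, Oas3, Irgm1 and Socs1 lie on the minus strand, and no window overlaps an annotated exon in GENCODE. The windows of Slfn5 and Irgm1 lie upstream of the RefSeq start but inside the gene as GENCODE draws it. In Isg15, Irgm1 and Socs1 the capitals run on because matches overlap.

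How well the label held differed among members. B cell genes were present in every member by the gate, and Cmpk2, a mitochondrial nucleotide kinase and the 1 marker of the label that the rule did not use, stood at 107 against 13.5 CPM (UMIs per 1000000) in members and other B cells without genes of another lineage. That summed level does not show how many members carried Cmpk2, which belongs to the same response as the rule genes. However, 59 of the 255 members (23.1%, 18.1% to 28.8%) also carried genes that define another blood lineage, compared with 234 of 2634 other B cells (8.88%, 7.82% to 10.0%). The limit used was at least 3 UMIs of a lineage's markers, or at least 2% of UMIs from haemoglobin or from neutrophil genes, and it was set after the data were seen. Erythroid genes were the most frequent, in 38 members (14.9%) against 35 other B cells (1.33%), and macrophage or monocyte genes followed in 22 members (8.63%) against 112 other B cells (4.25%). Both kinds were present in 11 members.

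Members with another lineage differed from the rest in depth and content. Their median depth was 15070 UMIs against 5630 in the other 196 members, and haemoglobin made up 26.99% of their UMIs against 0.14%. They held a median of 13.4 UMIs of the 3 B cell gate genes per 10000, against 68.9 in the other members. The doublet caller Scrublet marked 12 of these 59 barcodes (20.3%), 0 of the 196 members without another lineage and 137 of all 6588 barcodes (2.08%). Among other B cells it marked 33 of 234 with another lineage (14.1%) and 6 of 2400 without (0.25%). Whether a marked barcode was a B cell with foreign RNA, 2 cells in 1 droplet or another cell with B cell RNA was not tested. The 196 members and 2400 other B cells without another lineage are called B-only below, where 7.55% of 2596 cells responded (6.56% to 8.63%). B-only members were slightly deeper than other B-only cells, with medians of 5630 and 5030.5 UMIs, and had similar medians of mitochondrial UMIs, 6.73% and 6.67%.

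The 6 rule genes chose the cells, so their levels are a description. Ifit1, Ifit2 and Ifit3 encode proteins that bind viral RNA, Rsad2 encodes viperin, Oasl1 belongs to the oligoadenylate synthetase family and Usp18 removes ISG15 and dampens receptor signalling. In B-only members, Ifit3 supplied 33.8% of the rule's UMIs, Usp18 16.4%, Ifit2 13.5%, Oasl1 13.1%, Ifit1 13.01% and Rsad2 10.2%. Members with another lineage drew 64.5% of their rule UMIs from Rsad2 and 5.78% from Ifit3. In the 38 erythroid-marked members Rsad2 supplied 74.95%, and 25 of them fell below 3 rule UMIs when Rsad2 was not counted, as against 15 of the 196 B-only members.

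The same imbalance stood in erythroid cells themselves. Among 356 barcodes gated as erythroid, 218 (61.2%) reached 3 rule UMIs, and Rsad2 supplied 90.5% of these UMIs. Rsad2 stood at 725 CPM there, Isg15 at 1145 and Ube2l6, the ISG15-conjugating enzyme, at 1052, whereas Ifit3 stood at 4.61 and Ifit2 at 1.84. Erythroid-marked members carried the same genes, with Rsad2 at 476, Isg15 at 690 and Ube2l6 at 520 CPM. B-only members had Rsad2 at 143, Isg15 at 434 and Ube2l6 at 39.5 CPM, and Ifit3 at 472. The imbalance was not particular to erythroid cells. Rsad2 supplied 66.0% of rule UMIs in gated macrophages and monocytes and 54.3% in gated neutrophils. In the 22 macrophage-marked members it supplied 63.9%. However, 11 of these 22 were also erythroid-marked, and haemoglobin made up 18.8% of their UMIs, so they are no separate case. Gated macrophages and monocytes had Rsad2 at 366, Isg15 at 560 and Ube2l6 at 410 CPM.

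**Figure D1:**
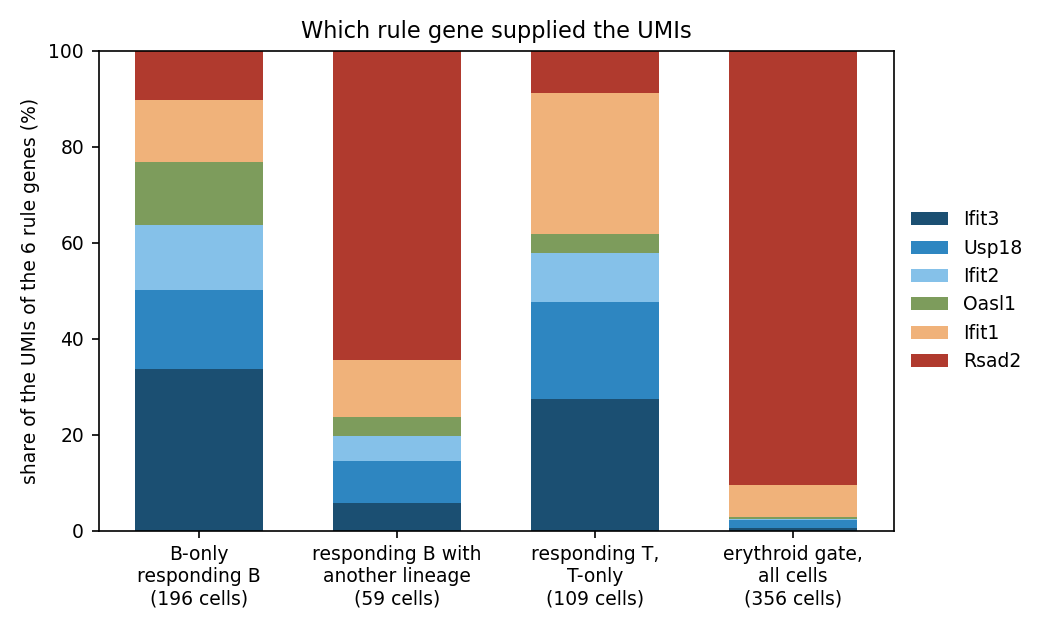
The vertical axis gives the percent of all UMIs of the 6 rule genes that each gene supplied, for B-only responding B cells, responding B cells with another lineage, responding T cells without another lineage and all cells of the erythroid gate. Rsad2 supplies 10.2% in B-only members, 64.5% in members with another lineage and 90.5% in erythroid cells.

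Many members lay near the minimum. Of gated B cells, 60 had exactly 3 rule UMIs, just inside the limit, and 171 had exactly 2, just outside, while 483 had 1 and 1980 had 0. At least 10 rule UMIs were present in 74 cells (2.56%) and at least 20 in 33 (1.14%). The count per member ran from 3 to 69 with a median of 6, and from 3 to 48 with a median of 5 in B-only members. Of the B-only members, 13 had UMIs of a single rule gene, 43 of 2, 63 of 3, 19 of 4, 30 of 5 and 28 of all 6.

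Because deeper barcodes reach 3 UMIs more easily, the share of cells was also taken after each cell was thinned to 2000 UMIs. Gated B cells then reached the rule in 87 of 2851 cells (3.05%, 2.45% to 3.75%), with 38 shallower cells left out. Gated T cells reached it in 46 of 695 thinned cells (6.62%, 4.89% to 8.73%) with 7 left out, and natural killer cells in 1 of 203 (0.49%, 0.01% to 2.71%) with 1 left out. Unthinned, the shares were 8.83% of B, 19.7% of T and 2.45% of natural killer cells, at median depths of 5174, 6693.5 and 4369 UMIs. The intervals of B and T cells did not overlap on either scale, with T cells the higher, and both are shares within 1 pooled sample. Both gates still held barcodes with another lineage. Thinned B-only cells reached the rule in 2.97% (2.35% to 3.70%). Other gates had thinned shares of 24.1% (erythroid, 19.5% to 29.3%), 12.2% (macrophages and monocytes, 7.61% to 18.2%) and 10.2% (neutrophils, 5.56% to 16.9%), and 0 of 4 plasmacytoid dendritic cells reached it.

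All genes, the 6 of the rule included, were compared by their CPM summed over responding and over other cells. Over all gated B cells, 385 of 8903 genes with at least 100 UMIs were at least 2-fold higher in members (4.32%) and 136 at least 2-fold lower (1.53%), with a median log2 ratio over all tested genes of −0.18. In B-only cells 122 of 8355 genes were at least 2-fold higher (1.46%) and 121 at least 2-fold lower (1.45%), with a median of −0.06. The 2 comparisons share their cells; 82 genes were higher in both, which is 21.3% of the first list and 67.2% of the second. Without the rule genes, which are high by choice, the higher genes were 379 of 8897 over all gated B cells and 116 of 8349 in B-only cells, and 76 were shared. Since the rule used this contrast, these counts describe the cells it took.

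Over all gated B cells, erythroid genes headed the ranking. Trim10 stood at 79.3 against 1.11 CPM, a log2 ratio of 6.16, Rhd at 70.0 against 1.29 (5.76) and Slc4a1 (the red cell anion exchanger band 3) at 215 against 4.37 (5.62). Sptb and Alas2, the first enzyme of haem synthesis in red cells, were also among the 25 highest. In B-only members 17 of these 25 genes had at most 3 UMIs and only 4 had enough UMIs to be compared: Ifit3b and Isg15 remained at least 2-fold higher there, and Car2 and Bpgm did not. In B-only members Alas2 had 4 UMIs and Slc4a1 6. All 7 erythroid markers were at least 2-fold higher over all gated B cells, with a median log2 ratio of 4.77, and of the 5 that could be compared in B-only cells none was, with a median of −0.12.

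With these barcodes left out, genes of the interferon response took their place. Of the 122 genes at least 2-fold higher, 69 belonged to the interferon lists and 53 did not; outside the rule 63 of 116 did, out of 114 list genes tested. The exact counting interval lay wholly past 2-fold for 83 of the 122 higher genes (0.993% of those tested), of which 60 were in those lists (54 of 77 outside the rule), and for 2 of the 121 lower genes (0.0239%). The 25 highest outside the rule began with Ifit3b at 97.7 against 1.37 CPM, a log2 ratio of 6.16 (5.46 to 6.94). Mx1, a GTPase that blocks viral replication, stood at 127 against 8.12 CPM, with a log2 ratio of 3.96 (3.61 to 4.32). Isg15, a ubiquitin-like modifier, stood at 434 against 32.4 CPM (3.74, 3.56 to 3.92).

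The remaining genes of these 25 had log2 ratios between 2.31 and 3.74. They were Oas3, Ifi44, Trim30c, Cmpk2, Slfn5, Oasl2, Rtp4, Ifitm3, Tgtp2, Phf11a, Lgals3bp, Isg20, Irf7, Oas2, Oas1a, Zbp1, Xaf1, Ifit1bl1, Ifih1, Herc6, Eif2ak2 and Jaml. Of these, Jaml, an adhesion molecule, and Trim30c stood in none of the lists used here. Several have close relatives in the genome, among them Ifit3 and Ifit3b, Ifit1 and Ifit1bl1, and the Oas1, Trim30, Phf11 and Ifi200 groups, and how reads shared between such copies were counted is not given in the sources used here. Their individual values are uncertain for that reason.

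The type I interferon-stimulated genes, 54 without the 6 of the rule, were high almost throughout. In B-only cells 40 of 48 with enough UMIs were at least 2-fold higher and none lower, with a median log2 ratio of 1.93 against −0.06 for all tested genes. Over all gated B cells the count was 38 of 49 and the median 1.46 against −0.18. The range in B-only cells ran from 0.15 for Ly6e to 6.16 for Ifit3b. This list and the others below were drawn up with earlier results of these data known, and the members were chosen by 6 genes of the same response, so the medians are no independent sign of it.

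Cell by cell, the response outside the rule was continuous with that of other B cells. The UMIs of the 53 measured genes of this list were summed per cell and given per 10000 UMIs of the cell. B-only members ranged from 35.1 to 386 with a median of 155, and other B-only cells from 0 to 254 with a median of 57.4. The groups overlapped widely: 123 of 196 members (62.8%) lay above the value that 5% of other cells exceeded, 124. Members with another lineage had a median of 64.7, near that of cells outside the rule, and 12 of 59 lay above that value (20.3%).

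**Figure D2:**
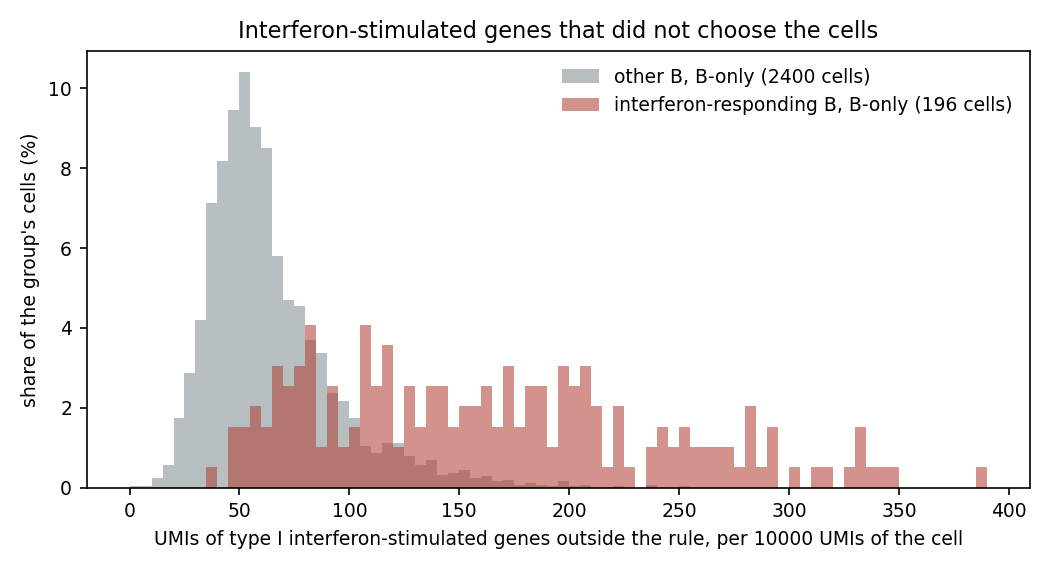
The horizontal axis gives the UMIs of type I interferon-stimulated genes outside the rule per 10000 UMIs of the cell, and the vertical axis the percent of each group's cells in bins of 5. The 2400 other B-only cells centre on a median of 57.4, and the 196 responding cells spread from 35.1 to 386.

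The level of other interferon genes went with the number of rule UMIs, below the minimum as well as above it. On the same per-cell scale, the median was 55.2 in the 1838 B-only cells with no rule UMI, 64.3 in the 418 cells with 1, 81.4 in the 144 with 2, 106 in the 48 with 3 and 115 in the 40 with 4. It reached 155 in 42 cells with 6 to 10, 200 in 26 cells with 11 to 20 and 263 in 26 cells above 20. The cells just inside the minimum of 3 and those just outside it therefore lay next to each other on this scale, at median depths of 5320.5 and 5666.5 UMIs.

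Some single genes went with the rule UMIs over most of the bins, and others did not in every bin. Isg15 stood at 26.97 CPM with no rule UMI, 47.7 with 1 to 2, 164 with 3 to 5, 298 with 6 to 10, 748 with 11 to 20 and 1242 above 20. Mx1 went from 6.13 through 13.7, 62.8, 90.3 and 142 to 386 CPM over the same bins. Irf7, which drives further type I interferon production, went from 23.1 to 245 CPM, at 253 in the bin below the last. Cd274 stood at 27.4, 37.9, 82.7, 40.1, 80.9 and 172 CPM, Gbp2 at 22.01, 29.4, 38.3, 63.6, 45.5 and 83.5, and Ifi27l2a fell from 2588 to 2280 in the last bin. H2-K1, a classical MHC class I heavy chain, stayed between 1896 and 2087 CPM in all 6 bins.

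**Figure D3:**
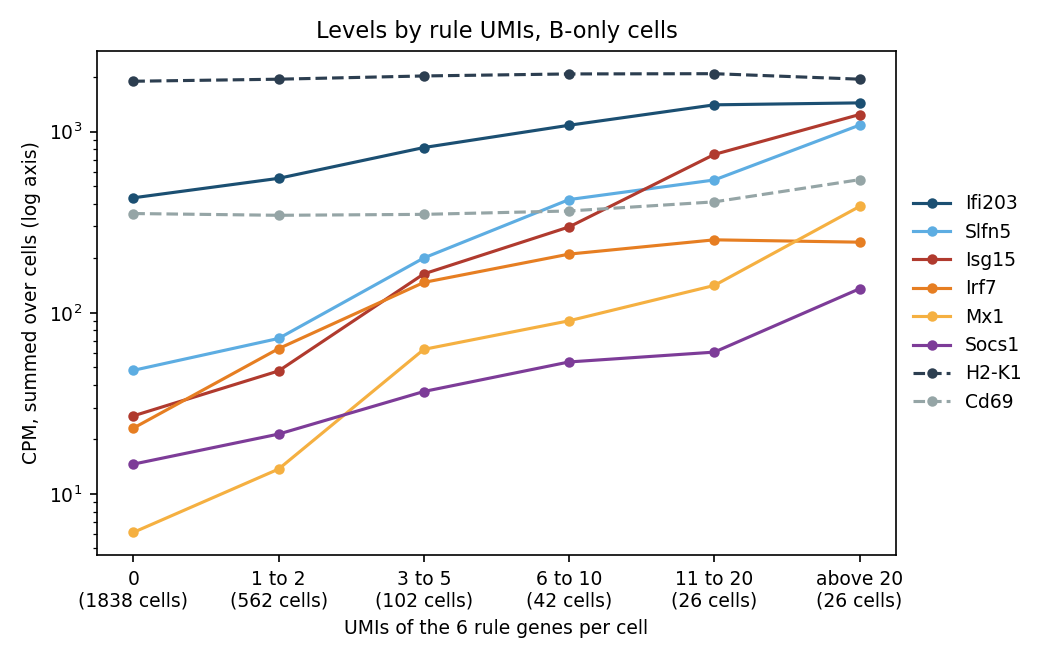
The horizontal axis bins B-only cells by their UMIs of the 6 rule genes, with the number of cells in each bin, and the vertical axis gives CPM summed over the bin's cells on a log scale for 8 genes. Isg15 rises from 26.97 to 1242 CPM and Mx1 from 6.13 to 386, while H2-K1 stays between 1896 and 2087.

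The receptor genes of the pathway did not pass 2-fold. Ifnar1 and Ifnar2, the chains of the type I interferon receptor, stood at 58.2 against 62.9 CPM and 33.5 against 36.2, log2 ratios of −0.11 (−0.47 to 0.22) and −0.11 (−0.58 to 0.33). Of 11 receptor and JAK-STAT genes compared in B-only cells, 2 were at least 2-fold higher, among them Stat2, a subunit of ISGF3, at 110 against 37.8 CPM (1.54, 1.26 to 1.80). Jak1, Tyk2, Jak2, Stat3 and both interferon gamma receptor chains lay between −0.25 and 0.13.

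Among the interferon regulatory factors 1 of 8 was at least 2-fold higher. Irf7 stood at 191 against 33.6 CPM, a log2 ratio of 2.50 (2.28 to 2.73). Irf9, the DNA-binding subunit of ISGF3, stood at 144 against 80.6 CPM (0.84, 0.61 to 1.06). Irf1, which interferon gamma induces strongly, had 0.40, and Irf8 and Irf4, factors of B cell development and differentiation, 0.07 and −0.18. Irf1 does not stand for all genes that lean to interferon gamma. Of 12 such genes compared in B-only cells, 5 were at least 2-fold higher and 0 lower, with a median of 0.64. Igtp and Socs1 had the largest of these ratios, at 2.04 and 1.83. Which interferon acted was not tested.

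The sensors of foreign nucleic acid were higher in part. Of 14 compared, 9 were at least 2-fold higher in B-only members, with a median of 1.29. Zbp1, which senses Z-form nucleic acid and can trigger necroptosis, stood at 245 against 44.9 CPM (2.45, 2.25 to 2.64). The RNA sensors Ddx58 (RIG-I) and Ifih1 (MDA5) had 1.59 (1.41 to 1.77) and 2.37 (1.78 to 2.95), and Dhx58, their regulator LGP2, 1.84. Mavs, the adaptor of these RNA sensors, and Tmem173 (STING) had −0.49 and −0.39. Tlr7, the receptor for single-stranded RNA, had 0.87.

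Antiviral effectors and the ISG15 system were higher in part. Of 26 antiviral effectors 18 were at least 2-fold higher, with a median of 1.89. Slfn5 stood at 426 against 54.4 CPM (2.97, 2.81 to 3.13), Ifitm3, which blocks viral entry, at 165 against 26.4 CPM (2.64, 2.40 to 2.89) and Bst2, tetherin, at 304 against 83.2 CPM (1.87, 1.70 to 2.03). Apobec3 and Shisa5 in the same list had 0.09 and 0.41. Of 17 genes of the ISG15 and ubiquitin-like system 10 were at least 2-fold higher, among them Herc6, the ISG15 ligase of mice, at 2.37, and Parp14, Parp9 and Dtx3l at 1.95, 1.88 and 1.59. Ube2l6 in this list is the gene that the mixed barcodes moved most, from a log2 ratio of 3.21 over all gated B cells to 1.30 in B-only cells. All 5 of the Oas and Oas-like genes compared outside the rule were at least 2-fold higher, and RNase L, the nuclease their product activates, had 0.71.

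Interferon-inducible GTPases attack the vacuoles of intracellular microbes. Of 12 compared in B-only cells 10 were at least 2-fold higher, with a median of 1.48. Over all gated B cells 8 of 13 were, with a median of 1.35. Irgm1 stood at 294 against 61.4 CPM (2.26, 2.08 to 2.43), Ifi47 at 365 against 78.3 CPM (2.22, 2.06 to 2.38) and Igtp at 99.9 against 24.4 CPM (2.04, 1.74 to 2.33). The exceptions were Gbp5 at 0.72 and Gbp3 at 0.59.

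Genes listed as negative regulators of interferon signalling were higher in part, and the list is broad: Nlrc5 also stands in the MHC class I list. Of 12 negative regulators outside the rule, 4 were at least 2-fold higher: Socs1, which blocks JAK kinases, at 58.2 against 16.4 CPM (1.83, 1.44 to 2.20), Cd274 (PD-L1) at 85.7 against 30.1 CPM (1.51, 1.20 to 1.81), Lgals9 at 168 against 61.5 CPM (1.45, 1.24 to 1.67) and Nlrc5 at 59.6 against 27.9 CPM (1.10, 0.73 to 1.45). Socs3 had 0.43, and the phosphatases Ptpn1, Ptpn2, Ptpn6 and Ptpn11 lay between −0.19 and 0.02.

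The MHC class I pathway differed by less than the antiviral lists. In B-only cells 2 of 23 genes, Nlrc5 and H2-T24, were at least 2-fold higher and the median log2 ratio was 0.35. Over all gated B cells none of 23 was, and the median was −0.01 against −0.18 for all tested genes. Tap1, a subunit of the peptide transporter, stood at 217 against 147 CPM (0.56, 0.38 to 0.74) and B2m at 1645 against 1387 CPM (0.25, 0.18 to 0.31), while H2-K1 had 0.09 (0.04 to 0.15) and H2-D1 −0.02. None of 12 MHC class II genes passed 2-fold, and their median was −0.18, with Ciita, their master regulator, at −0.24.

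**Figure D4:**
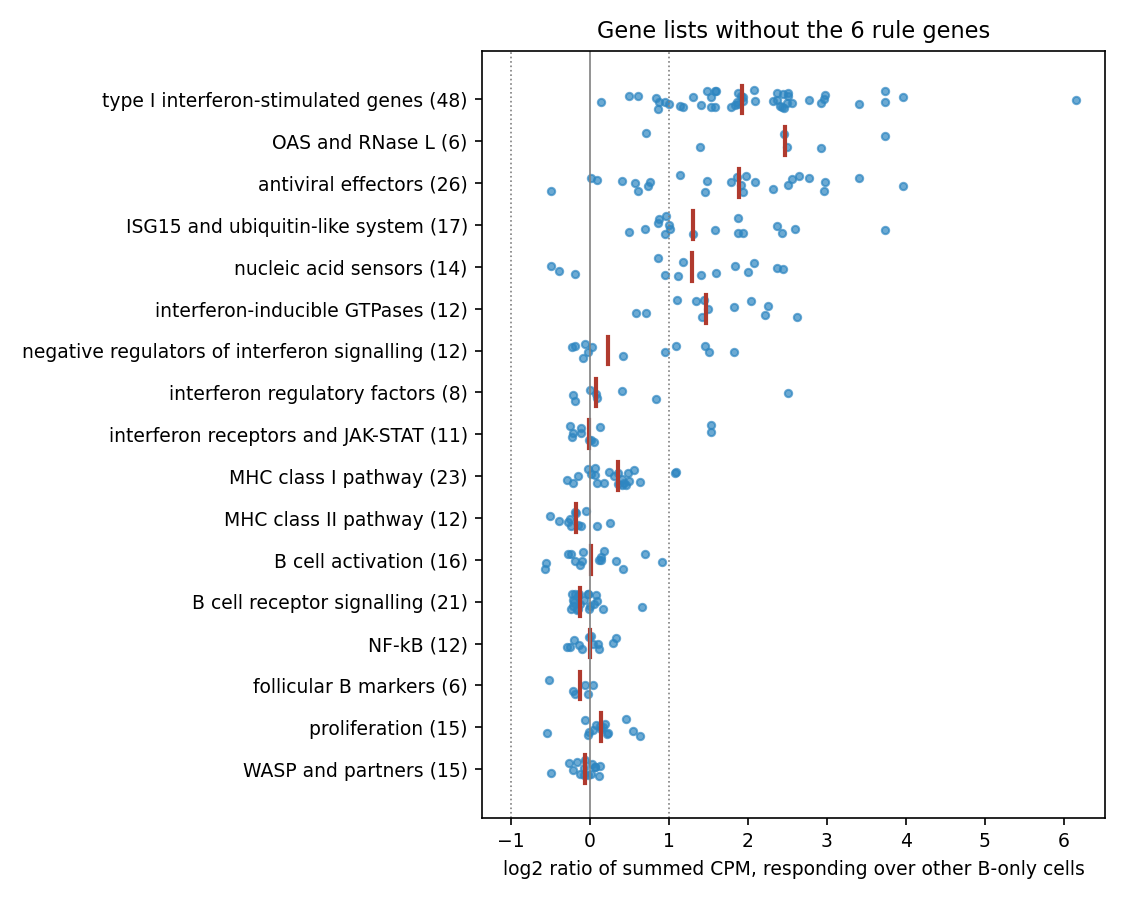
Each point is 1 gene with at least 100 UMIs, placed by its log2 ratio of summed CPM between responding and other B-only cells, in 17 lists without the 6 rule genes (gene numbers in parentheses; a gene can stand in several lists). Red bars mark medians, from 1.93 for type I interferon-stimulated genes through 0.35 for MHC class I to −0.18 for MHC class II, and dotted lines mark 2-fold.

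The listed activation genes did not pass 2-fold, a limit that few genes of any kind passed (1.46% higher and 1.45% lower in B-only cells). Of 16 B cell activation genes, 21 of B cell receptor signalling, 12 of NF-kB, 10 Toll-like receptor and adaptor genes and 12 immediate early genes, none was at least 2-fold higher or lower in B-only members. Cd69 stood at 389 against 351 CPM (0.15, 0.02 to 0.28) and Cd86, a costimulatory ligand, at 95.4 against 71.3 CPM (0.42, 0.14 to 0.69). Ly6a (Sca-1) came nearest, at 999 against 529 CPM (0.92, 0.83 to 1.0), and Myc had 0.70 (0.47 to 0.91). Outside the lists, and picked after their values were seen, the immediate early genes Atf3 and Nr4a2 stood higher: Atf3 at 17.9 against 5.68 CPM (1.66, 0.93 to 2.33, on 24 UMIs in members) and Nr4a2 at 15.7 against 6.61 CPM (1.24, 0.49 to 1.94, on 21). None of 15 proliferation genes passed 2-fold in B-only cells, where Mki67 had 0.64 (0.31 to 0.95), whereas 7 of 16 did over all gated B cells, where it had 2.06. The share of B-only cells with a Mki67 UMI was not higher in members: 9 of them (4.59%) against 115 other cells (4.79%). After thinning it was 1.55% against 2.07%. Mki67 stood at 243 CPM in the 48 B-only cells with exactly 3 rule UMIs, 43.3 in the 40 with 4 and 0 above 20.

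Of the B cell subset markers, none of 6 follicular, 8 marginal zone, 5 transitional or 5 B-1 genes passed 2-fold in B-only cells; with so few genes at the shares above, little can be read from that count. The B-1 marker Bhlhe41 came near, at 16.4 against 29.8 CPM (−0.86, −1.55 to −0.24). The transitional marker Myb had −0.72 (−1.43 to −0.08) in B-only cells and 0.72 over all gated B cells. Fcer2a (CD23), the low-affinity IgE receptor of follicular B cells, was the follicular marker that differed most, at 236 against 339 CPM (−0.52, −0.69 to −0.35). After thinning, 71 of 194 members (36.6%, 29.8% to 43.8%) and 1019 of 2367 other cells (43.1%, 41.04% to 45.07%) had a Fcer2a UMI, with 61.7% and 63.2% unthinned. In T cells, which should lack it, 6 of 592 thinned cells did (1.01%) at a median depth of 6590 UMIs. Plac8 stood at 1424 against 756 CPM (0.91, 0.84 to 0.98), whereas the marginal zone markers Cd1d1, Cd9 and Cr2 had 0.03, 0.38 and −0.19.

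Immunoglobulin chains were shared in like proportions. Ighm was the heavy chain constant gene with the most UMIs in 188 of 196 B-only members (95.9%, 92.1% to 98.2%) and in 2305 of 2391 other B-only cells (96.4%, 95.6% to 97.1%). A class-switched chain led in 2 members, 1 with Ighg2b and 1 with Ighg2c. Igkc led among light chains in 90.8% of members (85.9% to 94.5%) and 89.96% of other cells (88.7% to 91.1%). Free immunoglobulin RNA in the droplets was not removed.

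The genes that were lower held few molecules. The 121 genes at least 2-fold lower in B-only members had a median of 6 UMIs there, against 118.5 UMIs for the 122 higher ones. Fam210b had 2 UMIs in members and 154 in other cells, a log2 ratio of −2.89 (−5.95 to −1.01), and Fam222b had 3 and 192 (−2.63, −4.92 to −1.06). These were the 2 whose counting interval lay wholly past 2-fold. The 12 lowest genes in B-only cells had 2 to 7 UMIs in members, and the 12 lowest over all gated B cells had 1 to 7 in B-only members, where 9 of the 12 could be compared and all 9 were at least 2-fold lower. Fam210b, a gene known for a role in red cell development, stood at 31.2 against 11.5 CPM over all gated B cells, the opposite direction.

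Genes outside the lists were higher too, and of those given here Trim30c and Ifi214 belong to the Trim30 and Ifi200 groups named above. Trim30c stood at 103 against 11.1 CPM (3.22, 2.87 to 3.56), Ifi214 at 306 against 80.3 CPM (1.93, 1.76 to 2.09) and Rnf213, a large ubiquitin ligase, at 333 against 92.4 CPM (1.85, 1.69 to 2.01). Ly6c2 stood at 133 against 44.6 CPM (1.58, 1.33 to 1.82) and Ms4a4c at 601 against 265 CPM (1.18, 1.07 to 1.29). Apart from Trim30c, these were picked after their values were seen. Of the called genes and rule genes, 119 had a position in GENCODE vM21 (GRCm38.p6), and 42 of them lay in 11 groups of at least 3 genes with gaps under 1 Mb. On chromosome 19 these were Ifit2, Ifit3, Ifit1bl1, Ifit3b and Ifit1, all 5 of the genes tested there, and on chromosome 14 Phf11a, Phf11b, Phf11c and Setdb2, all 4. On chromosome 1 they were Ifi206, Ifi214, Ifi213, Ifi209 and Ifi203, 5 of 6 tested, and on chromosome 5 Oas2, Oas3, Oas1c, Oas1a and Trafd1, 5 of 8. Other groups were sparser: Irgm1, Tgtp2 and Ifi47 on chromosome 11 were 3 of 6, and Ifitm3, Irf7 and Slc25a22 on chromosome 7 were 3 of 13. Each span was drawn from the called genes themselves. How often tested genes of any kind form such groups was not counted, so the grouping is a description only.

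The promoter element printed above was frequent among the genes that were higher. Of 97 B-only higher genes found in the promoter table (250 bases before to 50 after the start), 42 (43.3%) held GAAANNGAAA on either strand. Without the rule genes it was 39 of 92 (42.4%). The share was 4.11% of the 6644 tested genes in the table and 3.99% of all 27025. Among the 65 found genes whose interval lay past 2-fold it was 35 (53.8%; 32 of 60 without the rule genes), and among 93 lower genes 2 (2.15%). The GTPases held it in 10 of 11 promoters. The GAS motif TTCNNNGAA, which can overlap it, stood in 16 of the 97 (16.5%), compared with 8.31% of tested genes and 9.55% of all. Among the GTPases, GAS stood in 6 of the same 11 promoters (54.5%). Cmpk2, Irf7, Ifi44, Oasl2, Herc6, Xaf1, Ube2l6 and the rule gene Oasl1 held neither motif in this window, and the rule gene Ifit2 held only GAS. A match of letters does not show binding.

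T cells that passed the same 6-gene minimum were set beside the B cells. They were 138 of 702 gated T cells, or 109 without another lineage (T-only, against 490 other T-only cells). In T-only cells 57 of 4895 genes were at least 2-fold higher (1.16%) and 37 at least 2-fold lower (0.76%). Of the 57 higher genes 51 were also higher in B-only members, which is 89.5% of the T list and 41.8% of the B list of 122. Without the rule genes 46 were shared, of 52 in T and 116 in B cells. The T comparison held fewer genes with at least 100 UMIs, 4895 against 8355 in B-only cells. B genes below that minimum in T cells could not be called there. Among them were Ifit3b, Mx1 and Oas2, with log2 ratios in T of 4.23, 3.89 and 3.65. The unshared part of the B list is therefore not a count of genes without a response in T cells. Both lists were chosen by the same 6 genes. The rule's UMIs were spread differently: Ifit1 supplied 29.3% in T-only members against 13.01% in B-only members, and Oasl1 3.97% against 13.1%.

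Some ratios differed between the cell types beyond their counting intervals; these differences were not tested over samples. Socs1 stood at 58.2 against 16.4 CPM in B cells but at 86.0 against 81.4 CPM in T cells, so its log2 ratio was 1.83 (1.44 to 2.20) in B and 0.08 (−0.32 to 0.46) in T. Ifi47 had 2.22 (2.06 to 2.38) in B and 0.67 (0.48 to 0.86) in T, where other T cells already stood at 251 CPM against 78.3 in other B cells. Ifit3b had 6.16 in B and 4.23 in T, Lgals3bp had 2.56 (2.20 to 2.91) in B and 1.35 (0.92 to 1.78) in T, Oas3 had 3.74 and 2.30, and Ly6c2 had 1.58 and 0.26. In the other direction, Pml, the scaffold of nuclear bodies, had 0.97 (0.82 to 1.12) in B and 1.75 (1.32 to 2.18) in T. Oas2 had 2.49 (2.10 to 2.88) in B and 3.65 (2.84 to 4.53) in T, with intervals that overlap. Ncoa7 had 0.41 (−0.04 to 0.83) in B and 1.33 (0.84 to 1.80) in T. For Cmpk2, Samd9l and Helz2 the ratio was also larger in T, by 0.33 to 0.39, with overlapping intervals for Cmpk2 and Helz2.

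**Figure D5:**
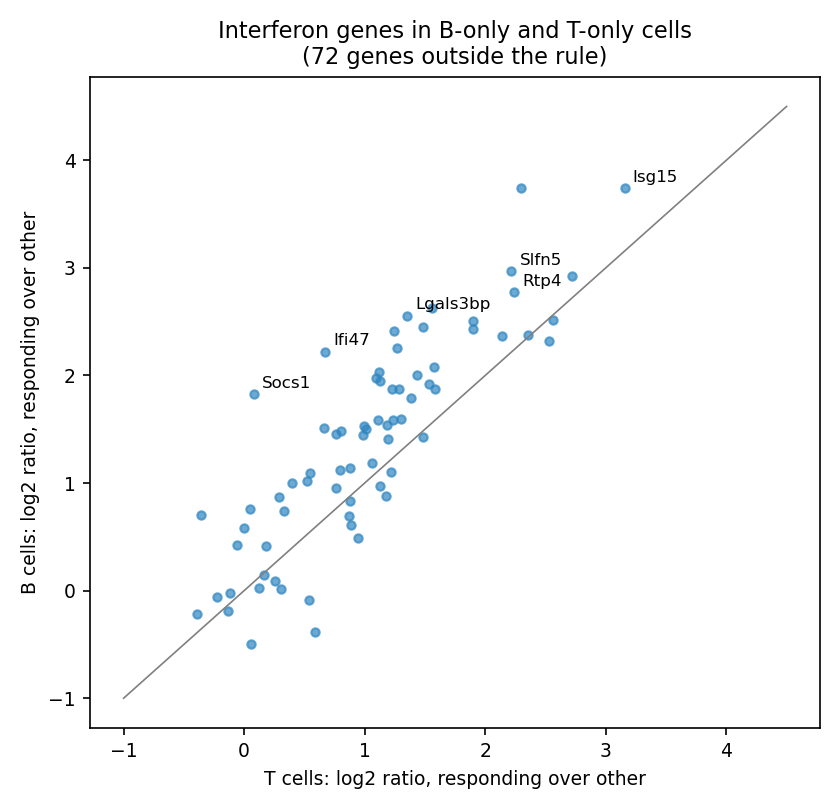
Each point is 1 of 72 interferon-list genes outside the rule that had enough UMIs in both cell types, with its log2 ratio of responding over other cells in T-only cells (horizontal) and in B-only cells (vertical). The line marks equal ratios; 54 of the 72 genes lie above it, Socs1 at 1.83 in B and 0.08 in T.

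Type I and lambda interferon transcripts were nearly absent. Of 21 interferon genes listed, 18 had no UMI in any of the 6588 barcodes, among them Ifnb1 and all numbered alpha interferons. Ifnab had 1 UMI and Ifnk 2. Ifng, the gamma interferon, had 638 UMIs in 317 barcodes, of which 279 lay in gated natural killer cells, 128 in gated T cells, 10 in responding B cells and 37 in other gated B cells.

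Was itself stood at 72.3 CPM in B-only members and 79.0 in other B-only cells, a log2 ratio of −0.13 (−0.44 to 0.17). No cell was assigned to a genotype by it.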

How the data were processed

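The deposited table holds whole-number UMI counts per gene symbol and barcode; per the labels' protocols the libraries were droplet 3′ libraries mapped to the mm10 genome (build also named in the submitters' processing notes), with the programs for counting and cell calling not given in the sources used here. It holds 31017 symbols and 7524 barcodes. Depth ran from 500 to 129686 UMIs per barcode, with a median of 5339 in the 6588 that passed. The members and gene lists were chosen with earlier results of these data known.

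Counts were summed over cells and scaled to CPM. Genes needed 100 UMIs over both B cell groups, or 50 in both responding groups to be named against T cells, and "called" means at least 2-fold. Intervals are 95% Clopper-Pearson for shares and exact conditional binomial for ratios; UMIs of 1 cell are not independent, so they are too narrow. Named genes were the 25 highest and 12 lowest ratios, list members and the 6 most different genes each way against T cells. On simulated counts of 8355 genes at the B-only depths, the interval left out 0 for 96.0% of 2-fold genes and 4.03% of unchanged genes. Doublets were called with Scrublet (scanpy 1.11.5) but not removed. Alternatives used edgeR 4.0.16 and DESeq2 1.42.0 for scaling only. Sequences are from RefSeq tables (GRCm38.p6, the mm10 assembly). Genotypes were not compared.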

Additional observations from a re-analysis of the deposited data

How the results depend on the processing

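No paired analysis was possible because no barcode is tied to a sample. In what follows the share of gated B cells that respond (main 8.83%), the genes at least 2-fold higher (385) and lower (136), and the median log2 ratios of type I interferon-stimulated genes (1.46) and MHC class I genes (−0.01) are given where they moved; the cause was not tested. With a rule minimum of 2 the share was 14.75% and 36 genes were lower. With 5 it was 5.19% and 473 were lower, and with 10 it was 2.56%, 1127 were lower and the medians were 1.84 and 0.15. A mitochondrial limit of 5% left 60 responding cells, 16.4% of those gated, with 139 genes higher and 428 lower of 4012 and medians of 0.59 and −0.51. Applying the rule after thinning to 2000 UMIs gave 3.05%, 870 lower genes and medians of 2.17 and 0.34. Weighting other cells by depth gave 256 higher genes. The mean of per-cell CPM gave medians of 1.81 and 0.24. A gene minimum of 30 UMIs gave 696 higher and 421 lower, 300 gave 172 and 29, and none gave 2159 and 3501. Among genes named in the text, Mki67 turned from higher over all gated B cells to −3.0 under the thinned rule. Nr4a2 in B-only cells went to −0.59 with a minimum of 10 (−3.65 to 1.30, an interval that spans no change). Chosen after seeing the data, leaving out barcodes with another lineage gave 7.55%, 122 higher genes and medians of 1.93 and 0.35. Fam210b turned from higher to lower there, at −2.89 (−5.95 to −1.01). Bpgm at −0.42 (−1.28 to 0.34) and Car2 at −0.34 (−1.28 to 0.47) were no longer higher, with intervals that span no change. Leaving Rsad2 out of the rule, also chosen after seeing the data, gave 7.2% and medians of 1.75 and 0.21. In B-only cells (7.55%, 122, 121, 1.93, 0.35), a rule minimum of 5 gave 4.16%, 372 lower genes and 2.18, and one of 10 gave 2.08%, 259 higher, 782 lower and 2.44. The settings with 2 or 5 marker UMIs for another lineage, without Rsad2 in the rule and without Scrublet calls left all 5 B-only values within 1.5 times or their intervals, as did depth weights and per-cell means for the 4 values other than the share, which they do not enter.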
